A study of Chlamydomonas reinhardtii with 5 samples.

Results

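The RNA-Seq libraries of GR6 and XR6, γ-irradiated and X-irradiated cells of the unicellular green alga Chlamydomonas reinhardtii at the same absorbed dose of 6 Gy, were compared directly and without the mock across all genes. They are 2 of the 5 libraries of the study, which also holds GR50, XR50 and an unirradiated mock, and they were chosen by their labelled treatment and dose. Every library was made from WT cells of strain CC-125 grown in tris-acetate-phosphate (TAP) medium under constant white light. Cells for irradiation were taken in the mid-exponential phase, and the study's methods do not give the time from irradiation to RNA harvest. GR6 cells came from cultures in flasks. They were dispensed into large conical tubes without being concentrated and received 6 Gy of γ-rays from a cobalt source over 1 h. XR6 cells came from smaller cultures in conical tubes. They were concentrated into microcentrifuge tubes and received 6 Gy of X-rays over 22.2 min from a cabinet machine run at 160 kV and 1 mA. GR50 and XR50 were handled in the same 2 ways, with 50 Gy delivered over 1 h in GR50 and over 8.1 min, at a tube current of 10 mA, in XR50. The mock had 0 Gy, and the sources used here do not say whether its cells were cultured and handled as in GR6 or as in XR6. A library's distance from the mock may therefore hold handling as well as radiation, which was not tested. The type of radiation therefore went with the culture vessel and volume, the cell concentration, the tube and the exposure time in both pairs. These cannot be told apart. The study used RNA-Seq to assess genotoxic stress by either radiation at a dose that stimulates growth and at one that inhibits it.

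Ionizing radiation breaks DNA strands and damages bases, both directly and through reactive oxygen species formed from water. Cells answer by raising DNA damage response (DDR) genes, whose products coat exposed single strands (replication protein A), hold broken ends for end joining (Ku), trim flaps left by replication and base repair (FEN1) and supply deoxyribonucleotides (ribonucleotide reductase). A comparison of γ-rays with X-rays at equal absorbed dose asks whether such genes, or any others, stand at different levels. Here the culture and the handling differed along with the type of exposure.

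Reads counted on genes amounted to 19037167 in GR6 and 18364833 in XR6, against 19893156 to 20330055 in the 50 Gy libraries and 19267141 in the mock. These were 49.3% of all listed reads in GR6 and 55.9% in XR6, and 41.8% in GR6 and 32.2% in XR6 had not been aligned. The other 3 libraries lay between 37.7% and 41.3% not aligned, so that XR6 stood apart from the rest in this measure, whose part in the results below was not tested. Counts were converted to CPM, the reads of a gene relative to its library's total, with the TMM scaling of edgeR, and the ratio is given as the log2 of GR6 over XR6, so that a positive value is higher in GR6. With 1 library on each side there is no replicate error and no test between the conditions. Each ratio carries a 95% interval from its pair of counts, computed exactly after Clopper and Pearson. This interval covers the error of counting and nothing else, since it is computed from the 2 counts alone. PCR copies were not told apart by molecular identifiers, so it may be too narrow even for that. A gene was called when it differed by more than 2-fold and its interval left out no change. A call says that the 2 libraries differed, not that the 2 treatments would differ again.

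Of 17742 counted genes, 15527 had at least 1 count in both libraries. GR6 was higher in 1032 of them (6.65%) and lower in 1158 (7.46%) by this rule. The median log2 ratio over all 15527 genes was -0.01, and for 8512 genes (54.8%) the whole interval lay within 2-fold. The genes called higher had a median log2 ratio of 1.38 (interquartile range 1.15 to 1.83), and 199 of them exceeded 4-fold, 45 exceeded 8-fold and 11 exceeded 16-fold. The genes called lower had a median of -1.37 (-1.83 to -1.14), with 230 beyond 4-fold, 75 beyond 8-fold and 23 beyond 16-fold. The 2 tails were thus of like size, and most calls were differences between 2-fold and 4-fold. For 425 of the higher and 397 of the lower genes the whole interval lay beyond 2-fold. A further 659 genes passed 2-fold without a call, and their mean count over both libraries had a median of only 4.5. With library totals in place of TMM, the median of all genes shifted to -0.11, and 823 genes were called higher and 1454 lower, so that the higher genes made up 36.1% of the calls instead of 47.1%. The balance between the tails therefore rests on the scaling.

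**Figure D1:**
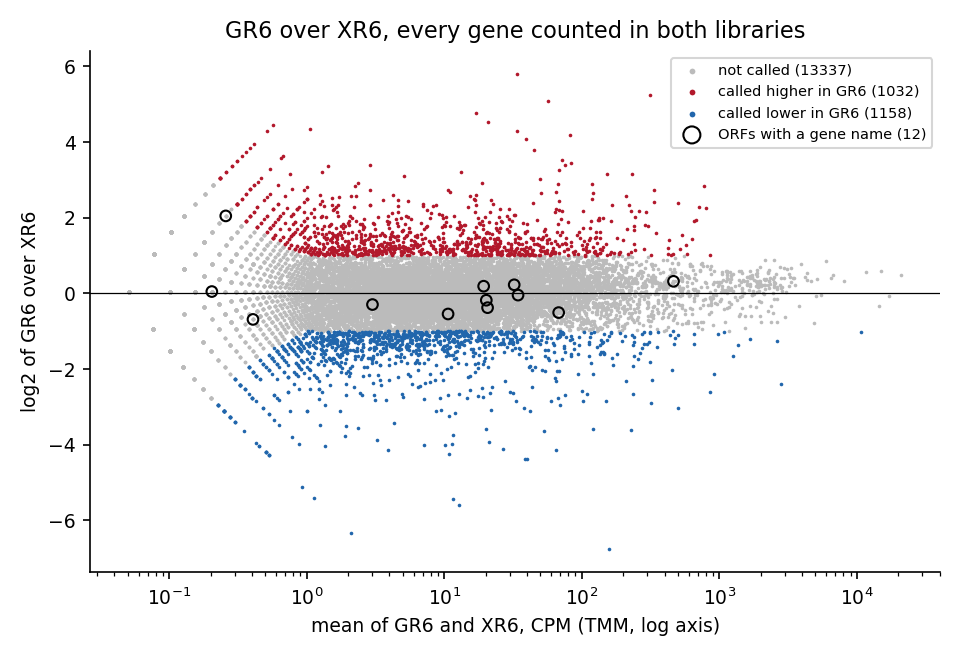
Log2 of GR6 over XR6 (vertical axis) against the mean CPM of both libraries (horizontal log axis) for each gene counted in both. Red points are the 1032 genes called higher in GR6, blue points the 1158 called lower, grey points the genes not called, and black circles the 12 ORFs with a gene name, all of which lie among the genes not called.

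Among the 100 genes with the most reads in both libraries, which took 38.1% of the reads on genes in GR6 and 36.4% in XR6, 0 were called higher and 3 were called lower, beside 6.65% and 7.46% of all genes. Most of them nevertheless leaned the same way, with 77 of the 100 above XR6 and a median log2 ratio of 0.24. This lean was not seen at 50 Gy, where the median of GR50 over XR50 for these 100 genes was -0.10. The largest single difference in CPM toward GR6 belonged to CHLRE_01g066917v5 (chromosome 1, 7954526 to 7956348), with 471375 counts in GR6, 348570 in XR6 and 491487 in the mock (log2 ratio 0.48, 95% interval 0.48 to 0.49). CHLRE_12g548950v5 (chromosome 12, 8390064 to 8391748) had 344777 counts in GR6, 236196 in XR6 and 337253 in the mock (0.59). CHLRE_03g182551v5 (chromosome 3, 5197561 to 5198678) had 149072 counts in GR6, 85370 in XR6 and 140992 in the mock (0.85). In all 3 genes GR6 lay near the mock in counts and XR6 below it, and none reached 2-fold. The same held for CHLRE_04g232104v5, with 267730 counts in GR6, 185680 in XR6 and 252767 in the mock, and for CHLRE_01g010900v5, with 151286 in GR6, 111185 in XR6 and 148807 in the mock.

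In the other direction, CHLRE_01g044800v5 (chromosome 1, 6257324 to 6267945) had 137585 counts in GR6 and 288160 in XR6, a log2 ratio of -1.02 (95% interval -1.03 to -1.01), just past the 2-fold limit. The call ended with DESeq2's size factors, where the ratio was just short of the limit, and with gene length taken into account (-0.80). It was lower by γ-rays at 50 Gy as well, with 125035 counts in GR50 and 291888 in XR50, and the mock had 241254. Here the γ-ray libraries were the ones away from the mock. CHLRE_08g372200v5 (chromosome 8, 2529268 to 2530757) showed the same arrangement, with 69504 counts in GR6, 122969 in XR6 and 122146 in the mock, at a log2 ratio of -0.77 that was not called. CHLRE_08g372100v5 (chromosome 8, 2518227 to 2522077) was called lower, with 29708 counts in GR6, 74069 in XR6 and 52105 in the mock (-1.27). CHLRE_07g350976v5 had 245843 counts in GR6 and 320727 in XR6 (-0.34).

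No DDR gene described here differed by 2-fold between GR6 and XR6 beyond its counting error. Of the ORFs that the study lists with gene names, DDR genes among them, 14 are described. The study chose them in these same libraries for more than 2-fold change against the mock with both X-rays and γ-rays. That choice may favour ORFs at like levels in GR6 and XR6, so small ratios between these libraries may partly follow from it. Of the 14 ORFs, 12 were counted in both GR6 and XR6, and 0 were called in either direction, beside 6.65% and 7.46% of all genes. For only 12 ORFs, 0 calls is not far from those shares. Their median log2 ratio was -0.11, against -0.01 over all genes. For 9 of the 12, the whole interval lay within 2-fold, and 5 of the 14 had a mean of under 20 counts over both libraries. Within these limits, 2 ORFs had an interval above no change, 3 had one below it, and 7 had one that held no change.

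CrGSTS2 (CHLRE_16g682725v5, chromosome 16, 3594796 to 3597627), a glutathione S-transferase, which couples glutathione to reactive compounds, had 9925 counts in GR6, 8231 in XR6 and 3212 in the mock. Its log2 ratio of GR6 over XR6 was 0.32 (95% interval 0.28 to 0.36). CrRPA30 (CHLRE_02g100000v5, chromosome 2, 4442875 to 4447323), a subunit of the single-strand binding protein RPA, had 670 counts in GR6, 592 in XR6 and 106 in the mock, with a log2 ratio of 0.23 (0.07 to 0.39). These were the 2 ORFs slightly higher in GR6, by less than 1.5-fold. CrRPA70A (CHLRE_17g718850v5, chromosome 17, 2796048 to 2801724), another RPA subunit, went the other way, with 1080 counts in GR6, 1588 in XR6 and 107 in the mock (-0.51, interval -0.62 to -0.40). CrFEN1 (CHLRE_03g145687v5, chromosome 3, 615858 to 618689), the flap nuclease, had 167 counts in GR6, 252 in XR6 and 64 in the mock (-0.55, interval -0.84 to -0.26). CrOASTL2 (CHLRE_16g664250v5, chromosome 16, 2961143 to 2963947), a cysteine synthase, had 346 counts in GR6, 465 in XR6 and 95 in the mock (-0.38, interval -0.58 to -0.17). In all 5 ORFs both irradiated libraries stood above the mock, and the difference between them was the smaller one. The study chose these ORFs for their change against the mock, so this order is largely set by that choice.

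The remaining well-counted ORFs had intervals that held no change. CrRIR2B (CHLRE_12g509400v5), the small subunit of ribonucleotide reductase, had 652 counts in GR6 and 696 in XR6 (log2 ratio -0.05, 95% interval -0.20 to 0.11). CrKU (CHLRE_10g423800v5), which carries the name of the end-binding Ku protein, had 365 counts in GR6 and 428 in XR6 (-0.18, interval -0.39 to 0.02). The intervals of both lay within 2-fold. With library totals, whose shift of the median is given above, the interval of CrKU also lay below no change and that of CrRPA30 held it, which made 1 ORF higher and 4 lower. CrEFP2 (CHLRE_06g263050v5), a mitochondrial elongation factor P that the study's text does not name as a DDR gene, had 52 counts in GR6 and 66 in XR6 (-0.30). CrLHL4 (CHLRE_17g740950v5), a light-induced protein of the light-harvesting family and not a DDR gene, had 397 counts in GR6, 360 in XR6 and 831 in the mock (0.19, interval -0.02 to 0.40). It was the one well-counted ORF of the 14 that stood below the mock in both libraries.

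The other 5 ORFs were too thinly counted to compare. CrADG (CHLRE_02g082000v5), a DNA repair glycosylase, had 8 counts in GR6 and 2 in XR6, a log2 ratio of 2.05 with an interval of -0.28 to 5.32. The histone H3 ORF CrHTR2 on chromosome 12 (CHLRE_12g505500v5) had 6 counts in GR6 and 10 in XR6. CrZSP2 (CHLRE_14g632799v5), a lectin-like zygote wall protein, had 4 in each. No ratio is given for CrVMPL1 (CHLRE_04g214800v5), an R-SNARE, with 0 counts in GR6 and 1 in XR6, or for the CrHTR2 ORF on chromosome 6 (CHLRE_06g275750v5), with 1 in GR6 and 0 in XR6. A difference in these 5 was not detectable at this depth.

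Between GR50 and XR50, 8 of the same 12 ORFs had a positive log2 ratio and 4 a negative one, with the interval above no change in 7, below it in 0 and holding it in 5. CrRPA70A had 6862 counts in GR50 and 3391 in XR50 (log2 ratio 0.97), against the negative ratio at 6 Gy. CrRIR2B stood at 0.72 and CrKU at 0.55 in GR50 over XR50. Of the 12 ORFs counted in both pairs, only 5 had the same sign at 6 Gy and at 50 Gy. None was called at 50 Gy, beside 10.9% of genes called higher and 6.52% called lower between GR50 and XR50. The study's choice of these ORFs and their small number limit this as well.

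**Figure D2:**
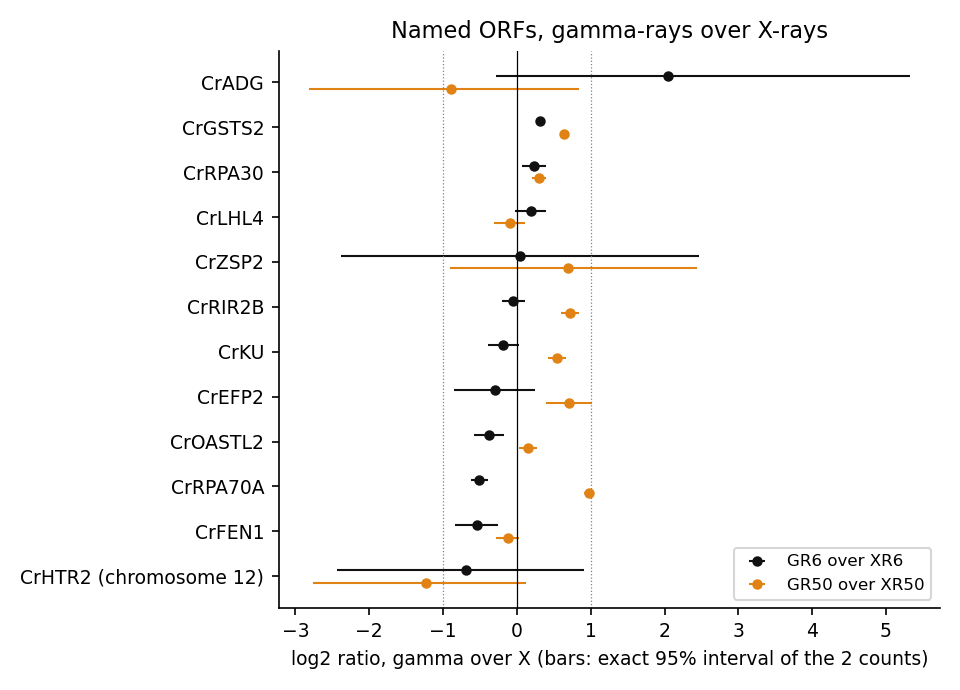
Log2 ratio of γ-rays over X-rays (horizontal axis) for the 12 named ORFs counted in both libraries, at 6 Gy (black, GR6 over XR6) and at 50 Gy (orange, GR50 over XR50), with bars for the exact 95% interval of the 2 counts and dotted lines at 2-fold. At 6 Gy the points of the well-counted ORFs lie between -0.55 and 0.32, and CrRPA70A moves from -0.51 at 6 Gy to 0.97 at 50 Gy.

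All called genes lay outside the named ORFs. No name or product was given for them in the sources used here, so whether DDR genes are among them is not known. They are therefore described by ORF, position and counts. The 15 higher ORFs whose interval was farthest from no change had log2 ratios of 3.14 to 5.79. CHLRE_01g033300v5 (chromosome 1, 4811030 to 4814601) had 1283 counts in GR6 and 24 in XR6, a 55.3-fold difference (95% interval 37.0 to 86.6). CHLRE_13g569400v5 (chromosome 13, 1118318 to 1121021) had 11859 counts in GR6 and 322 in XR6, a 38.1-fold difference (34.1 to 42.7). CHLRE_13g566850v5 (chromosome 13, 766218 to 768757) had 2118 counts in GR6 and 65 in XR6, a 33.7-fold difference (26.3 to 43.8). In the mock these 3 ORFs had 151, 1340 and 331 counts, which lay between both irradiated libraries. GR6 was above the mock and XR6 below it, so that the direct ratio was larger than either difference from the mock. CHLRE_09g400404v5 (chromosome 9, 5496953 to 5500652) repeated this with 635 counts in GR6, 24 in XR6 and 100 in the mock. So did CHLRE_06g281250v5 (chromosome 6, 5131766 to 5139867), with 3019 in GR6, 171 in XR6 and 572 in the mock.

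In 3 of the 15, the mock lay below both irradiated libraries. CHLRE_03g155350v5 (chromosome 3, 1927266 to 1932452) had 2563 counts in GR6, 232 in XR6 and 93 in the mock, a log2 ratio of GR6 over XR6 of 3.51 (95% interval 3.32 to 3.71). At 50 Gy it had 20867 counts in GR50 and 1215 in XR50, so that it was higher with γ-rays at both doses and higher at 50 Gy with both types. CHLRE_10g436000v5 (chromosome 10, 2457560 to 2474452) had 2382 counts in GR6, 258 in XR6 and 117 in the mock, with 2017 in GR50 and 171 in XR50. The third, CHLRE_12g521851v5 (chromosome 12, 4504413 to 4506774), had 1431 counts in GR6, 87 in XR6 and 78 in the mock. The other 12 ORFs had the mock between GR6 and XR6, and in none of the 15 was the mock nearer to GR6 than to XR6 on the log2 scale. All 15 were called higher in GR50 than in XR50 too, with log2 ratios of 2.56 to 6.19.

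The 15 lower ORFs had log2 ratios of -6.75 to -3.59. CHLRE_03g169550v5 (chromosome 3, 3722161 to 3726636) had the largest difference of any gene counted in both libraries, with 56 counts in GR6 and 6243 in XR6 (log2 ratio -6.75, 95% interval -7.16 to -6.37). The 50 Gy libraries held 37 counts in GR50 and 4517 in XR50, and the mock held 5110. The ORF was therefore near the mock with X-rays and almost without reads with γ-rays at both doses. CHLRE_06g309000v5 (chromosome 6, 8604782 to 8607670) had 10 counts in GR6 and 503 in XR6, against 371 in the mock. CHLRE_03g162800v5 (chromosome 3, 2885264 to 2887871) had 10 counts in GR6 and 450 in XR6, against 445 in the mock, with 0 counts in GR50 and 360 in XR50. CHLRE_16g686750v5 (chromosome 16, 4744739 to 4750135) had 68 counts in GR6 and 1467 in XR6, against 1064 in the mock. In these 4 ORFs it was GR6 that stood away from the mock.

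Others of the 15 had the mock between the 2 libraries by a wider margin. CHLRE_02g097800v5 (chromosome 2, 4110306 to 4117464) had 134 counts in GR6, 2461 in XR6 and 466 in the mock, and was the one ORF of the 15 with the mock nearer to GR6. CHLRE_16g655450v5 (chromosome 16, 1830814 to 1843136) had 70 counts in GR6, 1513 in XR6 and 587 in the mock. CHLRE_03g152750v5 (chromosome 3, 1613793 to 1617780), the most read of the 15, had 669 counts in GR6, 8433 in XR6 and 4458 in the mock, a log2 ratio of -3.61 (95% interval -3.72 to -3.49). All 15 kept their sign at 50 Gy where the direction could be read from counts, and 14 were called lower in GR50 than in XR50. The exception was CHLRE_03g162800v5, for which GR50 held 0 counts and no ratio was formed.

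**Figure D3:**
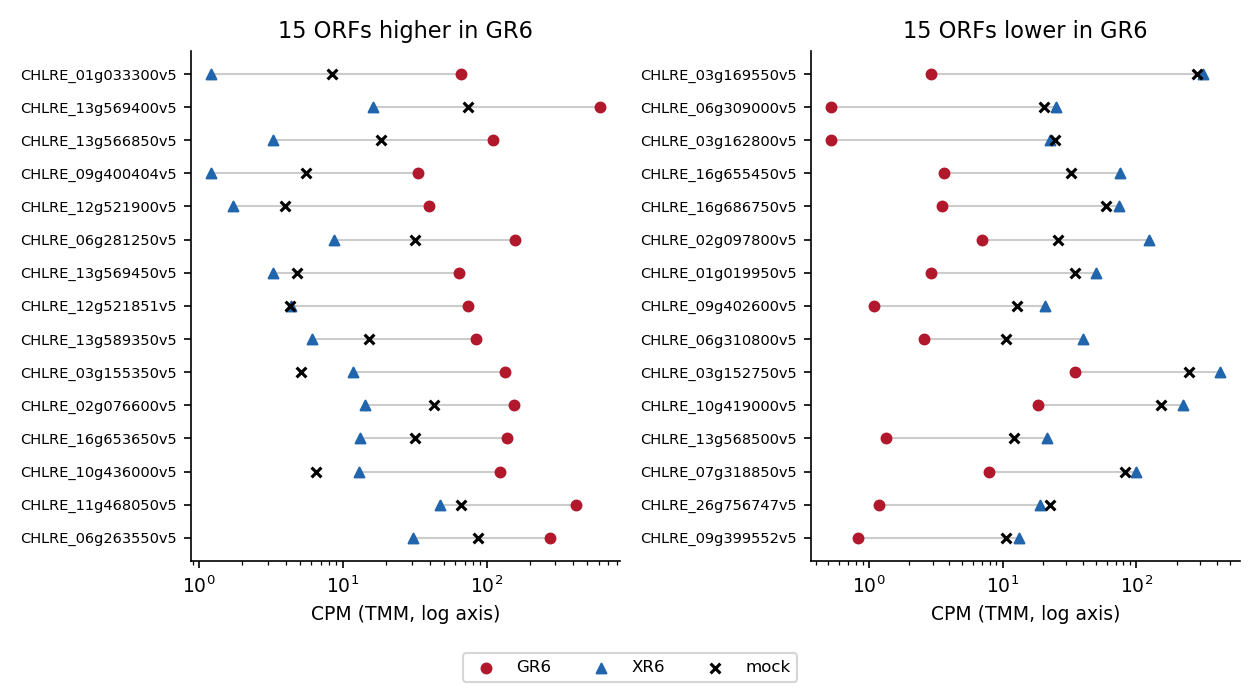
CPM (horizontal log axis) of the 15 ORFs higher in GR6 (left panel) and the 15 lower in GR6 (right panel) whose intervals were farthest from no change, with red circles for GR6, blue triangles for XR6 and black crosses for the mock. Crosses lie between circle and triangle in 12 of the 15 higher and in 13 of the 15 lower ORFs.

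Over all called genes, the mock lay between GR6 and XR6 in 807 of the 1032 higher genes (78.2%), below both in 149 and above both in 76. Among the 1158 lower genes it lay between in 873 (75.4%), below both in 183 and above both in 102. On the log2 scale, the mock was nearer to GR6 in 427 of the higher genes and nearer to XR6 in 604, whereas among the lower genes it was nearer to GR6 in 574 and to XR6 in 580. Neither library alone was thus the one away from the mock. The mock has 1 library as well, and how its cells were handled is not given. A level between 2 libraries that were picked for being far apart is a description of these calls and no test.

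Some genes were counted in only 1 of the 2 libraries. A count of 3 was taken as the limit that a count of 0 allows, 0.156 CPM in GR6 and 0.151 CPM in XR6. There were 72 genes at 0 in XR6 with more than 3 counts in GR6, and 56 at 0 in GR6 with more than 3 counts in XR6. CHLRE_33g758947v5, on an unplaced sequence from 27376 to 32357, had 0 counts in GR6 and 73 in XR6, and was at least 23.5-fold lower in GR6 against that limit, with the 73 counts taken as exact. The exact interval of both counts began at 18.7-fold. The mock held 31 counts of it, GR50 held 1 and XR50 held 35, so that few or no reads were found with γ-rays at either dose. CHLRE_17g720900v5 (chromosome 17, 3075100 to 3080515) had 0 counts in GR6 and 20 in XR6, at least 6.45-fold lower by the limit and from 4.77-fold by the exact interval. Toward GR6, CHLRE_13g570751v5 (chromosome 13, 1272317 to 1273148) had 21 counts in GR6 and 0 in XR6, at least 7.24-fold higher by the limit and from 5.38-fold by the exact interval. Nearly all such genes were close to the limit, and only 7 in GR6 and 6 in XR6 had more than 10 counts.

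The 50 Gy libraries, which share no library with GR6 and XR6, gave another comparison of the radiation types. The culture, cell concentration and tube differed in the same way, but the exposure times did not. The X-rays took 8.1 min in XR50 and 22.2 min in XR6, against 1 h of γ-rays at both doses. Of the 1032 genes called higher in GR6, 1024 were counted in GR50 and XR50. Of these, 859 (83.9%) had the same sign and 444 (43.4%) were called higher there, beside 51.2% of all genes with a positive sign and 10.9% of the genes of that pair called higher. Their median log2 ratio was 0.90 at 50 Gy and 1.38 at 6 Gy. Of the genes called lower in GR6, 1143 were counted at 50 Gy, where 839 (73.4%) had the same sign and 372 (32.5%) were called lower, beside 48.8% of all genes with a negative sign and 6.52% called lower. Their median was -0.61 at 50 Gy and -1.37 at 6 Gy. The genes called at 6 Gy thus leaned the same way at 50 Gy. Since they were selected for passing 2-fold at 6 Gy, nothing is read from the smaller medians at 50 Gy. Seen from both sides, the 444 shared higher genes were 43.0% of those called at 6 Gy and 26.3% of those called at 50 Gy, and the 372 shared lower genes were 32.1% and 36.8%.

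The share that kept its sign followed the read depth. Among the higher genes it was 69.6% below a mean of 50 counts, 90.0% from 50 to 500 counts and 93.9% at 500 counts or more. Among the lower genes it was 61.6%, 78.0% and 88.3% over the same ranges. A larger difference at 6 Gy was more often called again: 41.5% of the higher genes between 2-fold and 4-fold, 50.7% between 4-fold and 8-fold and 53.7% beyond 8-fold were called higher at 50 Gy. Among the lower genes these shares were 26.8%, 56.5% and 58.6%. The share that kept its sign did not rise with the difference among the higher genes, at 83.6%, 85.5% and 82.9%, with 41 genes in the last class. Among the lower genes it was 71.5%, 79.6% and 85.7%.

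**Figure D4:**
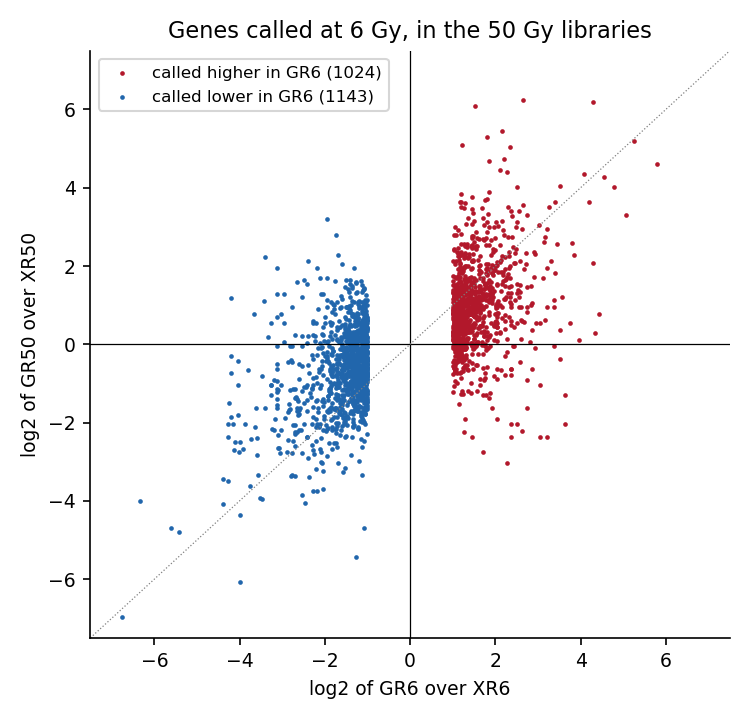
Log2 of GR50 over XR50 (vertical axis) against log2 of GR6 over XR6 (horizontal axis) for the genes called higher (red, 1024) or lower (blue, 1143) in GR6 and counted in all 4 irradiated libraries, with a dotted line where both ratios are equal. Of the red points 83.9% lie above 0 on the vertical axis, and of the blue points 73.4% lie below it.

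A small set went in opposite directions at the 2 doses, 16 genes called higher in GR6 but lower in GR50 and 44 called lower in GR6 but higher in GR50, 60 in all. The most read of the 60 was CHLRE_14g634365v5 (chromosome 14, 4154776 to 4157697), with 17185 counts in GR6 and 93743 in XR6 (log2 ratio -2.40, 95% interval -2.42 to -2.38). At 50 Gy it had 52636 counts in GR50 and 11762 in XR50 (2.12), and the mock had 10845. The order of the libraries was thus XR6 highest, then GR50, then GR6, with XR50 near the mock, which follows neither dose nor radiation type. CHLRE_03g145787v5 (chromosome 3, 640717 to 642631) had 566 counts in GR6 and 1665 in XR6, but 6282 in GR50 and 1955 in XR50, against 1127 in the mock. CHLRE_10g426152v5 had 349 counts in GR6 and 828 in XR6, and 2197 in GR50 and 996 in XR50. Both were picked after their values were seen.

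Called genes more often had a direct neighbour called in the same direction than other genes did, though most had none. This was examined after the calls had been made. On the numbered chromosomes, 221 of 1021 higher genes (21.6%) had a higher gene as a direct neighbour among the genes counted in both libraries, against 12.1% of the other genes. For the lower genes it was 291 of 1150 (25.3%), against 13.3% of the other genes. A neighbour called in the opposite direction was found for 11.3% of the higher and 10.2% of the lower genes. Runs of 3 or more genes, passing over genes not counted in both libraries, numbered 12 among the higher and 20 among the lower genes. The longest held 5 genes, with a gap of up to 13566 bp between neighbours. Reads cannot be assigned to 1 of 2 overlapping genes, but no genes overlapped in the 9 runs of 4 or more or in the 3 further runs of 3 genes with at least 500 counts each over both libraries.

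One run lay on chromosome 13 from 1113556 to 1129369 and held 4 higher ORFs at most 438 bp apart. CHLRE_13g569500v5 had 26100 counts in GR6 and 3749 in XR6 (log2 ratio 2.85). CHLRE_13g569450v5 had 1241 counts in GR6 and 65 in XR6 (4.30), and CHLRE_13g569400v5 is given above with 5.25. CHLRE_13g569350v5, at the other end, had 897 counts in GR6 and 269 in XR6 (1.79). The difference was thus larger in the middle of the run than at its ends. All 4 ORFs were called higher at 50 Gy.

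On chromosome 12, a run of 3 higher ORFs from 4504413 to 4515894, at most 48 bp apart, comprised CHLRE_12g521851v5, given above with 4.09, CHLRE_12g521900v5, with 766 counts in GR6 and 34 in XR6 (4.54), and CHLRE_12g521950v5, with 510 in GR6 and 89 in XR6 (2.57). All 3 were higher at 50 Gy as well, with log2 ratios of GR50 over XR50 of 4.36, 4.28 and 3.39. Another run of 3 on chromosome 3, from 4259915 to 4271424, held CHLRE_03g174450v5, with 11265 counts in GR6, 1753 in XR6 and 1884 in the mock (2.73). Its neighbours CHLRE_03g174350v5 and CHLRE_03g174400v5 stood at 1.66 and 2.36, and all 3 were called at 50 Gy.

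Runs of lower genes recurred in the same way at some positions and not at others. On chromosome 12 from 9518935 to 9535413, 4 ORFs had log2 ratios of -3.04 to -1.74, led by CHLRE_12g544752v5 with 158 counts in GR6, 1345 in XR6 and 1034 in the mock. All 4 were called lower at 50 Gy. A run of 4 on chromosome 11 from 75467 to 91987 ranged from -1.70 to -1.43, with 1493 counts in GR6 and 5030 in XR6 for CHLRE_11g467531v5, and was also called throughout at 50 Gy. On chromosome 15 from 86476 to 104410, by contrast, 4 ORFs stood at -1.32 to -1.02, with 921 counts in GR6 and 2120 in XR6 for CHLRE_15g634750v5, and 0 of the 4 were called at 50 Gy. In a run of 4 on chromosome 1 from 7787881 to 7823070, 0 of the 4 were called lower at 50 Gy, and CHLRE_01g055966v5, with 24 counts in GR6, 52 in XR6, 177 in GR50 and 79 in XR50, was called higher there. In the same run CHLRE_01g056696v5 had 45 counts in GR6 and 111 in XR6, but 256 in GR50 and 160 in XR50, against 10 in the mock. Of the 12 runs, 5 were called in the same direction throughout at 50 Gy, and these 2 had no gene called in the same direction. Whether neighbours share transcripts, promoters or misassigned reads was not tested.

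Chromosome 15 also stood apart as a whole, which was likewise examined after the calls had been made. Its 186 genes counted in both libraries had a median log2 ratio of -0.37, with 28 called lower (15.1%) and 10 called higher (5.38%). Chromosome 4 followed with a median of -0.14 and 10.6% lower, and the medians of the other numbered chromosomes lay between -0.06 and 0.05. Against the mock, the median of chromosome 15 was 0.07 in GR6 and 0.40 in XR6. The lower ratio therefore went with a high level in XR6. It was not found at 50 Gy, where the median of GR50 over XR50 for chromosome 15 was 0.18.

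The ratio also moved with gene length, taken from start to end of the annotated gene with introns. Genes whose mean count was 10 or more were split by length into 5 classes of equal size. The median log2 ratio was 0.12 in the shortest class (362 to 2826 bp), 0.08, 0.03 and -0.05 in the next classes and -0.23 in the longest (7996 to 108752 bp). The share of genes called lower was 6.64% in the shortest and 9.67% in the longest class, and the share called higher was 8.63% in the shortest and 3.50% in the longest. Short genes thus leaned toward GR6 and long genes toward XR6. Against the mock, the median ran from -0.16 in the shortest to 0.14 in the longest class in GR6, and from -0.28 to 0.36 in XR6. The length trend was steeper in XR6, the library with the fewest unaligned reads. It ran the other way at 50 Gy, from -0.11 to 0.10 in GR50 over XR50. Taking the median of its length class off every gene, an alternative chosen after seeing the data, left 1020 genes called higher and 1103 called lower, and the median of chromosome 15 at -0.32. By mean count, the medians were -0.07, -0.08, -0.07, 0.00 and 0.13 over 5 classes from the least to the most read genes. The share called lower was 12.8% in the least and 5.60% in the most read class, and the share called higher was 9.89% in the least and 6.92% in the most read class.

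**Figure D5:**
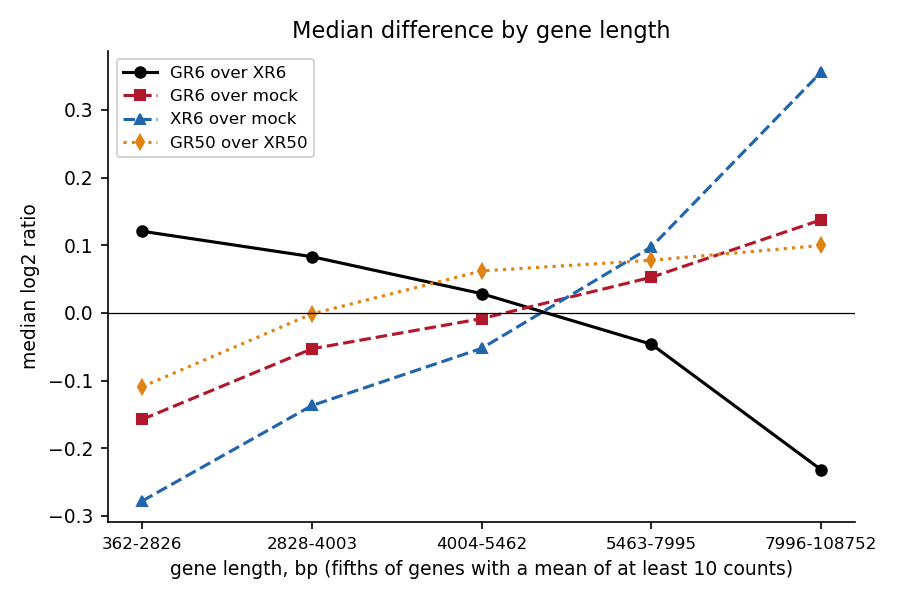
Median log2 ratio (vertical axis) over 5 equal classes of gene length in bp (horizontal axis) for genes whose mean count was 10 or more, as GR6 over XR6 (black circles), GR6 over mock (red squares), XR6 over mock (blue triangles) and GR50 over XR50 (orange diamonds). GR6 over XR6 falls with length, and it is the one ratio of the 4 that does so.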

How the data were processed

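The compared libraries, their members and the lists were chosen with earlier results of these data known. Per the labels and the study's methods, the authors sequenced strand-specific total RNA libraries from both ends, and reads were trimmed with Trimmomatic 0.36, aligned with HISAT2 2.2.1 and counted with HTSeq 0.11.3 after FastQC 0.11.5. The study's methods name the NCBI v5.5 genome and also a Phytozome release, and the ORF names and positions used here are those of v5.5. Whether the counting used the strand is not given in the sources used here. Without it, reads where antisense genes overlap may have been left unassigned as ambiguous. That class held 0.485% of listed reads in GR6 and 0.621% in XR6. The text describes 3 biological replicates, but 1 file per condition was analysed, and whether it pools them is not stated.

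The deposited values are raw counts for 17742 genes, with 5 counters of unassigned reads (50.7% of listed reads in GR6 and 44.1% in XR6), which stayed out of library sizes. Reads with several alignments, 3.06% in GR6 and 4.39% in XR6, are in these counters, so that genes with near-identical copies may be undercounted. Copies were not checked.

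Counts were scaled with TMM over all 5 libraries (edgeR 4.0.16, R 4.3.3), and ratios without a prior count and their Clopper-Pearson intervals came from SciPy 1.17.1. No test between conditions and no p-value was possible with 1 library each. The interval code was tested on simulated data. Positions and lengths came from RefSeq's gene table by ORF name, which matched all 17742 genes but gave 0 symbols beyond the ORF name. Of 22 gene lists considered, 21 could therefore not be matched to ORFs, and only ORFs named by the study were used, of which 14 are described and 1 is not reported here. A planned motif search in promoters was not run.

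Named genes were these 14 ORFs, the 15 ORFs in each direction with at least 100 summed counts and the interval bound farthest from no change, the 5 in each direction with the largest CPM difference, and the 3 in each direction with the highest count opposite a count of 0. Further genes from runs of neighbours and opposite calls were added after their values were seen.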

Additional observations from a re-analysis of the deposited data

Results flagged for a closer look

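Of the genes given in the text, 10 had counting intervals on opposite sides of no change at 6 Gy and at 50 Gy. With 1 library per condition, the difference between the doses was not tested. CrRPA70A had a log2 ratio of -0.51 in GR6 over XR6 and 0.97 in GR50 over XR50. CrOASTL2 had -0.38 at 6 Gy and 0.15 at 50 Gy. CHLRE_14g634365v5 had -2.40 at 6 Gy and 2.12 at 50 Gy, the largest turn among these 10. CHLRE_03g145787v5 had -1.51 at 6 Gy and 1.64 at 50 Gy, and CHLRE_10g426152v5 had -1.20 and 1.096. In the runs of neighbours, CHLRE_15g634750v5 had -1.15 at 6 Gy and 0.29 at 50 Gy. CHLRE_01g055966v5 had -1.07 and 1.12, and CHLRE_01g056696v5, in the same run, had -1.25 and 0.63. The heavily read ORFs CHLRE_01g066917v5 (0.48 at 6 Gy, -0.064 at 50 Gy) and CHLRE_07g350976v5 (-0.34 at 6 Gy, 0.10 at 50 Gy) differed by less than 2-fold at both doses.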

How the results depend on the processing

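No paired analysis was possible because each condition had 1 library, and for the same reason no replicate could be left out. Library totals moved the median log2 ratio to -0.11 and gave 1 named ORF with an interval above no change and 4 below. A mean of at least 50 counts left 665 higher and 693 lower genes, the whole interval beyond 2-fold left 425 and 397, a 4-fold limit left 199 and 230, and a 1.5-fold limit gave 2271 and 2432, each by construction. With upper-quartile scaling, 78.0% of the higher and 78.1% of the lower genes kept their sign at 50 Gy. Among genes whose mean count was 50 or more, 91.6% and 81.1% did, and with a call required at 50 Gy as well 43.4% and 32.5%. Above 10 counts, 7 genes were counted only in GR6 and 6 only in XR6. Scaling by DESeq2 1.42.0 gave 1077 higher and 1097 lower genes, a stricter interval 807 and 874, libraries thinned to the smaller total 1028 and 1145, and the fold alone 1405 and 1444. No called value turned its direction. The sign of CrZSP2 changed within its interval (library totals and length), and CrKU moved to 0.040 with length, past the upper end of its interval. CHLRE_01g044800v5 lost its call with DESeq2's size factors and with length. Depth limits genes below about 10 counts.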
